A study of Mus musculus with 7 samples.

Results

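The FOXO group described here holds 10 genes of mouse natural killer (NK) cells: the transcription factor genes Foxo1, Foxo3 and Foxo4, and 7 genes known as FOXO targets or as parts of the pathway around them, Pik3ip1, Txnip, Ccng2, Bcl6, Sesn1, Sesn3 and Irs2. The members were chosen by name, with earlier results of these data known, and matched to the count table by gene identifier. They were all found among its 53379 genes. All 10 passed the filter on low counts, with raw counts of 172 to 15122 in a single library. The study compared RNA from NK cells sorted directly from spleens of C57BL/6 mice, with 4 libraries of genotype Hhex KO and 3 of Cre control. The comparison asks what the loss of Hhex, a homeobox regulator of transcription, changes in the transcriptome of these cells. The sort took viable cells carrying the leukocyte marker CD45 (written C45 in the labels), NK1.1, NKp46 and CD49b and lacking CD3. Both groups share the tissue, the strain and the sort; the Cre driver, the floxed allele and the age of the mice were not given in the sources used here.

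FOXO proteins are transcription factors that are held in check by the kinase AKT. When PI3K is active, AKT phosphorylates FOXO proteins and they leave the nucleus; when the signal falls they return and switch on genes of cell cycle arrest, metabolic restraint, stress defence, trafficking and apoptosis. Foxo1 and Foxo3 are the forms best studied in lymphocytes, where Foxo1 controls Il7r and Klf2. Protein location and phosphorylation are not visible in RNA counts, so the values below describe transcripts only.

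The promoter windows of 4 members are shown because they belong to the members whose values differ most between the groups (Bcl6 and Irs2) or because they hold a FOXO element (Txnip and Sesn1). Each is 300 bases of RefSeq sequence on GRCm38.p6 reaching 250 bases before and 50 bases after an annotated RefSeq start, which can differ from the GENCODE gene ends given below, written 5′ to 3′ on the strand of the gene. Capitals mark every match, on either strand, to GTAAACA (the FOXO element), CAAAACA (the core of the insulin response element), CACGTG (the E-box) or CAATTAA (a homeobox element). The Bcl6 window lies at chr16:23988803-23989102 on the minus strand, Irs2 at chr8:11008880-11009179 on the minus strand, Txnip at chr3:96557707-96558006 on the plus strand and Sesn1 at chr10:41810324-41810623 on the plus strand.
Bcl6: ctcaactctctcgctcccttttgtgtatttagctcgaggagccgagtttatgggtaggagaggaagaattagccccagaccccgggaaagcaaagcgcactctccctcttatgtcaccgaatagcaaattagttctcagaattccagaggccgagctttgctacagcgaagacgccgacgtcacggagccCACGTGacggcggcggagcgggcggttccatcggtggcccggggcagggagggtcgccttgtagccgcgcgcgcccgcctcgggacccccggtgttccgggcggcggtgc
Irs2: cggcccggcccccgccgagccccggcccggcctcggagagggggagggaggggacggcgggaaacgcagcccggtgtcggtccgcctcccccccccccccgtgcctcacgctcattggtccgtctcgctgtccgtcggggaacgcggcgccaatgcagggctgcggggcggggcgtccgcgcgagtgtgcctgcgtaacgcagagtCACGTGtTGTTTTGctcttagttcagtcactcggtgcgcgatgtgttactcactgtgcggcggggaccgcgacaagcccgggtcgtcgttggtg
Txnip: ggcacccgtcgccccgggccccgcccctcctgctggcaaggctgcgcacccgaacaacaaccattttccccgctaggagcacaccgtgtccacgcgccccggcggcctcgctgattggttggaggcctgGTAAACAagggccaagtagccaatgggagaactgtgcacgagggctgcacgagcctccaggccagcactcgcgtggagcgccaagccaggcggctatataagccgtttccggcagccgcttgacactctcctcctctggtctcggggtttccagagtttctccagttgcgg
Sesn1: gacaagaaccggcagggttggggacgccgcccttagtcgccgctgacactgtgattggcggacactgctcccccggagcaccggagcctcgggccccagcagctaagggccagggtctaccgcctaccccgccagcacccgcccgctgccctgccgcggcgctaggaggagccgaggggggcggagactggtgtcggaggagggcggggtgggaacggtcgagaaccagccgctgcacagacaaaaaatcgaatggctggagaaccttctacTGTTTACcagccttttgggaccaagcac
The Txnip window held GTAAACA with its first base at position -121 from the start. The printed Sesn1 window held it on the opposite strand at position 23. Irs2 held CAAAACA on the opposite strand at -37 and CACGTG at -44, and the printed Bcl6 window held CACGTG at -60. Sesn1 and Bcl6 each had another window, not printed, at chr10:41887189-41887488 and chr16:23981234-23981533. Neither of those held any of the 4 motifs. Ccng2, not printed, held CAAAACA at -16. Of the 11 windows found for 9 members, 2 held the FOXO element, 2 the insulin core, 2 the E-box and 0 the homeobox element. Among all 32851 mouse windows of this length the shares were 3.65% for GTAAACA, 6.28% for CAAAACA, 7.15% for CACGTG and 2.58% for CAATTAA. The first 2 of these motifs end in the same 5 letters. A match describes letters only, and its absence from a window says nothing about binding elsewhere. RefSeq gave no window for Foxo4.

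Hhex itself, the targeted gene, stood at 58.0, 56.5, 54.2 and 64.8 normalised counts (CPM) in Hhex KO replicates 1 to 4, against 96.1, 95.6 and 93.5 CPM in Cre control replicates 1 to 3. It was lower in all Hhex KO libraries with a log2 fold change of -0.70 ± 0.10 (SE; edgeR adjusted p = 0.00768), and was still read in each of them; the call was lost without Cre control replicate 1 (0.0516). Library totals were 10589915 to 18456404 counts. Ncr1, which encodes the sorting marker NKp46, stood at 791 to 1004 CPM in Hhex KO and 834 to 1035 CPM in Cre control. The Hhex KO libraries fall into pairs. Nuclear-retained RNAs summed to 1133 and 1063 CPM in Hhex KO replicates 1 and 4, to 203 and 181 CPM in Hhex KO replicates 2 and 3, and to 318 to 810 CPM in Cre control. Below, CPM are scaled by TMM factors and gene coordinates are on GRCm38. Each log2 fold change sets Hhex KO (n = 4) over Cre control (n = 3) and is followed by its SE. Its adjusted p comes from the edgeR quasi-likelihood fit of 12161 genes, and a gene rose or fell when that p was below 0.05.

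Of the 10 members, 1 fell and 0 rose in Hhex KO NK cells. The one that fell was Bcl6, which encodes a transcriptional repressor; DESeq2 called Bcl6 lower and no other member. Over all genes tested, 4.56% were called in either direction, 1.87% lower and 2.68% higher. At an unadjusted p below 0.05, 3 of the 10 members differed (Bcl6, Irs2 and Sesn1), and 2251 of the 12161 genes did. The median log2 fold change was 0.02 for the members and 0.02 for all genes tested. The groups did not overlap for 1 of 10 members, again Bcl6, while 19.3% of all genes did not overlap. With 10 members these shares say nothing of the group as a whole. In bulk libraries, fewer cells of a type and less RNA per cell cannot be told apart, and this holds for every value that follows.

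**Figure D1:**
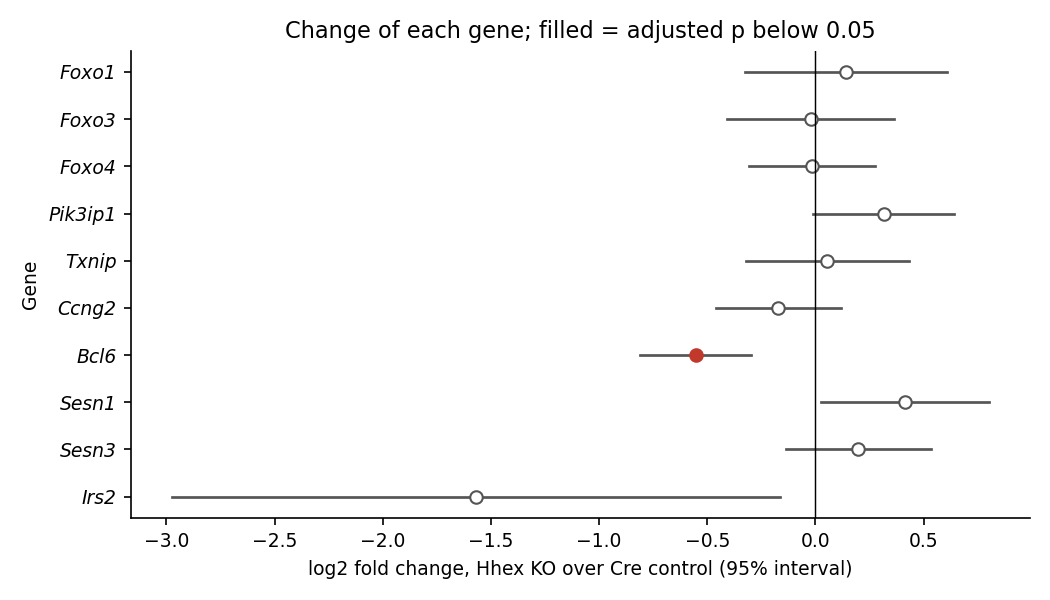
Log2 fold change of each member, Hhex KO over Cre control, with its 95% interval on the horizontal axis and 1 gene per line. Bcl6, at -0.55, is the filled point past the threshold; Irs2 lies farthest from 0 at -1.57 with an interval of -2.97 to -0.16, and the 3 FOXO factor genes have intervals that span 0.

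The 3 FOXO factor genes were all read in every library, and for none of them was a difference between the genotypes detected. Foxo1 (ENSMUSG00000044167.6, chromosome 3, 52268336 to 52353221, plus strand) encodes the factor best known for naive and memory lymphocyte homeostasis. It stood at 147, 179, 191 and 107 CPM in Hhex KO replicates 1 to 4, and at 119, 165 and 141 CPM in Cre control replicates 1 to 3. The Hhex KO libraries lay on both sides of the Cre control range, with replicates 2 and 3 above it and replicate 4 below it. The means were 156 ± 37.5 CPM in Hhex KO (SD, n = 4) and 142 ± 23.0 CPM in Cre control (SD, n = 3), which is a log2 difference of 0.14 ± 0.21 (adjusted p = 0.811). Its 95% interval, -0.33 to 0.61, corresponds to 0.797-fold to 1.52-fold, so a change of that size could have been missed. With only Hhex KO replicates 2 and 3 kept it was 0.37 (adjusted p = 0.0547), and with only replicates 1 and 4 kept the sign turned, at -0.15 (adjusted p = 0.631).

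Foxo3 (ENSMUSG00000048756.11, chromosome 10, 42181841 to 42276755, minus strand), whose product shares much of its target set with FOXO1, stood at 184, 170, 180 and 127 CPM in Hhex KO, against 147, 153 and 203 CPM in Cre control. The ranges overlapped, and replicate 4 was again the lowest Hhex KO library. The log2 fold change was -0.02 ± 0.17 (95% interval -0.41 to 0.37, adjusted p = 0.971). Foxo4 (ENSMUSG00000042903.8, chromosome X, 101254528 to 101260873, plus strand), a smaller paralog under the same AKT control, stood at 49.4, 38.9, 39.1 and 45.2 CPM in Hhex KO and 43.5, 39.5 and 47.6 CPM in Cre control. It had the smallest standard error of the 3, with a log2 fold change of -0.01 ± 0.13 (95% interval -0.31 to 0.28, adjusted p = 0.974). The signs of Foxo3 and Foxo4 turned under several alternatives and carry no direction. With only Hhex KO replicates 1 and 4 kept Foxo3 was at -0.10 and Foxo4 at 0.12, and with only replicates 2 and 3 kept Foxo3 was at 0.047 and Foxo4 at -0.17. Foxo6, the remaining paralog, had 0 counts in all 7 libraries.

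Between genes, levels can be set side by side only per length, here CPM per kilobase of exon. On that scale Foxo3 made up 39.9 to 43.8% of the summed level of the 3 factor genes in Hhex KO libraries and 40.0 to 47.3% in Cre control libraries. Foxo1 made up 29.3 to 38.6% in Hhex KO and 28.6 to 37.7% in Cre control, and Foxo4 19.6 to 30.8% in Hhex KO and 22.4 to 27.3% in Cre control. The sum of the 3 was 42.1 to 57.0 CPM per kilobase in Hhex KO and 45.6 to 56.7 in Cre control. Neither the shares nor the sum separated the genotypes.

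Over the whole group, Txnip had the highest level per length, at a mean of 227 CPM per kilobase over all 7 libraries. Sesn1 (25.4), Foxo3 (21.97), Ccng2 (17.7), Foxo1 (17.3), Sesn3 (15.4), Foxo4 (12.4), Irs2 (8.23), Pik3ip1 (5.67) and Bcl6 (3.85) followed in mean CPM per kilobase. The library range of Txnip, 185 to 276, was apart from that of Sesn1, 20.4 to 35.1. Every other pair of neighbours in this order overlapped in range, though Sesn3 was above Foxo4 in 7 of 7 libraries. Among the genes tested, Txnip stood at percentile 98.4 of level per length and Bcl6 at percentile 38.2.

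**Figure D2:**
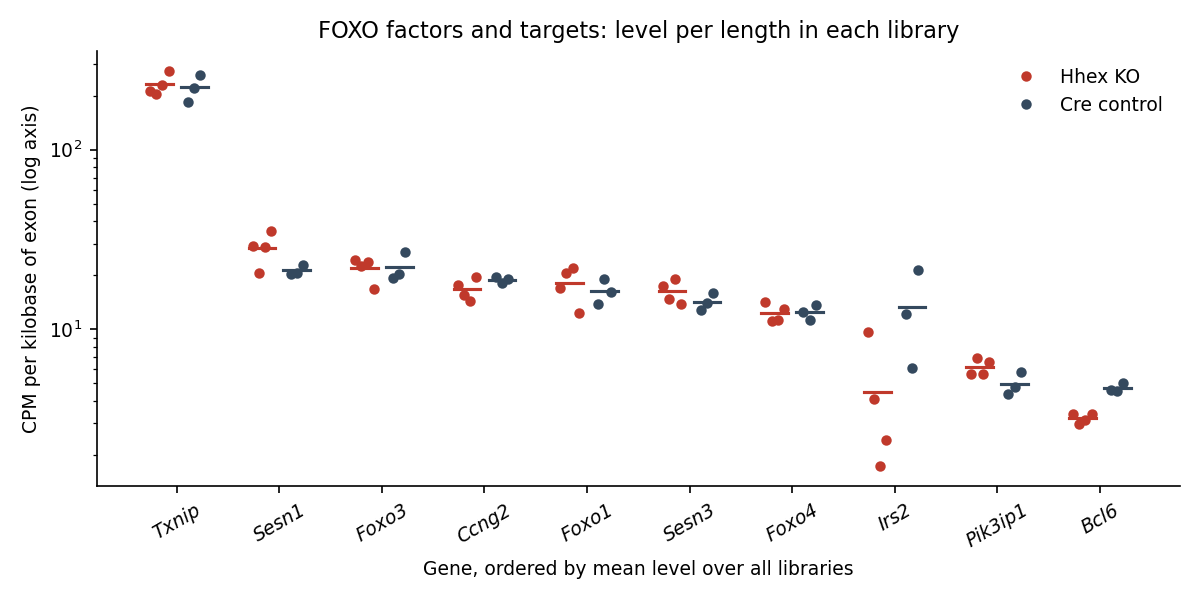
Level of each member in each library as CPM per kilobase of exon on a log axis; points are libraries and bars are group means. Txnip lies near 227 and the other members between about 3.85 and 25.4 on average; the points of Irs2 are the most spread, and Bcl6 is the member whose groups are apart.

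Pik3ip1 (ENSMUSG00000034614.14, chromosome 11, 3330401 to 3342971, plus strand) encodes a membrane protein that binds and restrains PI3K, and FOXO factors induce it in resting lymphocytes. It stood at 24.2, 29.4, 24.03 and 28.3 CPM in Hhex KO and at 18.7, 20.4 and 24.6 CPM in Cre control. Hhex KO replicates 2 and 4 were above all Cre control libraries, and replicates 1 and 3 lay just below the highest of them. The log2 fold change was 0.32 ± 0.14 (95% interval -0.01 to 0.64, adjusted p = 0.291).

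Of 34 listed PI3K-AKT regulators, 1 rose (2.94%) and 0 fell, beside 2.68% and 1.87% of all genes. The median log2 fold change of the 34 was -0.01. The 1 that rose was Inpp4b, which encodes an inositol phosphatase that lowers the PI3K lipid signal. It stood at 27.3, 14.3, 27.6 and 18.9 CPM in Hhex KO, against 3.82, 7.30 and 6.86 CPM in Cre control, a log2 fold change of 1.87 ± 0.31 (edgeR adjusted p = 0.0127). The groups were apart, and the call was lost without Cre control replicate 1 (adjusted p = 0.0639) or replicate 3 (0.0673).

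Irs2 (ENSMUSG00000038894.7, chromosome 8, 10984681 to 11008458, minus strand) encodes an adaptor that links insulin and cytokine receptors to PI3K, and FOXO factors raise it when insulin signalling is low. It had the largest fold change of the members and the widest spread. It stood at 60.9, 26.01, 10.9 and 15.2 CPM in Hhex KO replicates 1 to 4, against 76.6, 38.7 and 136 CPM in Cre control replicates 1 to 3. The highest library was 5.59 times the lowest within Hhex KO and 3.51 times within Cre control, and Hhex KO replicate 1 lay inside the Cre control range while the other Hhex KO libraries lay below it. The means were 28.3 ± 22.7 CPM in Hhex KO (SD, n = 4) and 83.8 ± 49.0 CPM in Cre control (SD, n = 3). The log2 fold change of -1.57 ± 0.61 (95% interval -2.97 to -0.16) had an unadjusted p of 0.0329 and an adjusted p of 0.218. It was -2.28 without Hhex KO replicate 1 (adjusted p = 0.060) and -1.02 without Cre control replicate 3 (adjusted p = 0.604). With only Hhex KO replicates 1 and 4 kept it was -1.13 (adjusted p = 0.487), and with only replicates 2 and 3 kept -2.21 (adjusted p = 0.152). With sample quality weights, limma-voom put it past the threshold, at -2.00 (adjusted p = 0.0231), in a fit that called 23.5% of all genes.

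Immediate-early genes, which are switched on within minutes of stimulation or handling, were lower in summed level in Hhex KO. The summed level of 24 immediate-early and stress genes was 5435, 5857, 3092 and 1910 CPM in Hhex KO replicates 1 to 4, against 13951, 10099 and 9966 CPM in Cre control replicates 1 to 3. The groups did not overlap. Of the 24 genes, 5 fell (20.8%) and 1 rose (4.17%), beside 1.87% and 2.68% of all genes. The 1 that rose was Myc (edgeR adjusted p = 0.0481), named after its values were seen. The median log2 fold change of the 24 was -1.31. Sgk1, a kinase gene of the PI3K branch whose product also phosphorylates FOXO proteins and which was chosen after its values were seen, stood at 312, 185, 105 and 147 CPM in Hhex KO and 472, 254 and 338 CPM in Cre control. Its log2 fold change was -0.92 ± 0.36 (adjusted p = 0.217). Among the Hhex KO libraries Sgk1 had the same order as Irs2, highest in replicate 1 and lowest in replicate 3. The immediate-early sum had another order there, highest in replicate 2 and lowest in replicate 4. Among the Cre control libraries the order differed, since Irs2 was highest in replicate 3 and Sgk1 and the immediate-early sum in replicate 1. So few libraries do not single out a gene by likeness of order, and a link of Sgk1 to Irs2 was not tested. The part of the immediate-early genes in the Irs2 values was not tested.

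**Figure D3:**
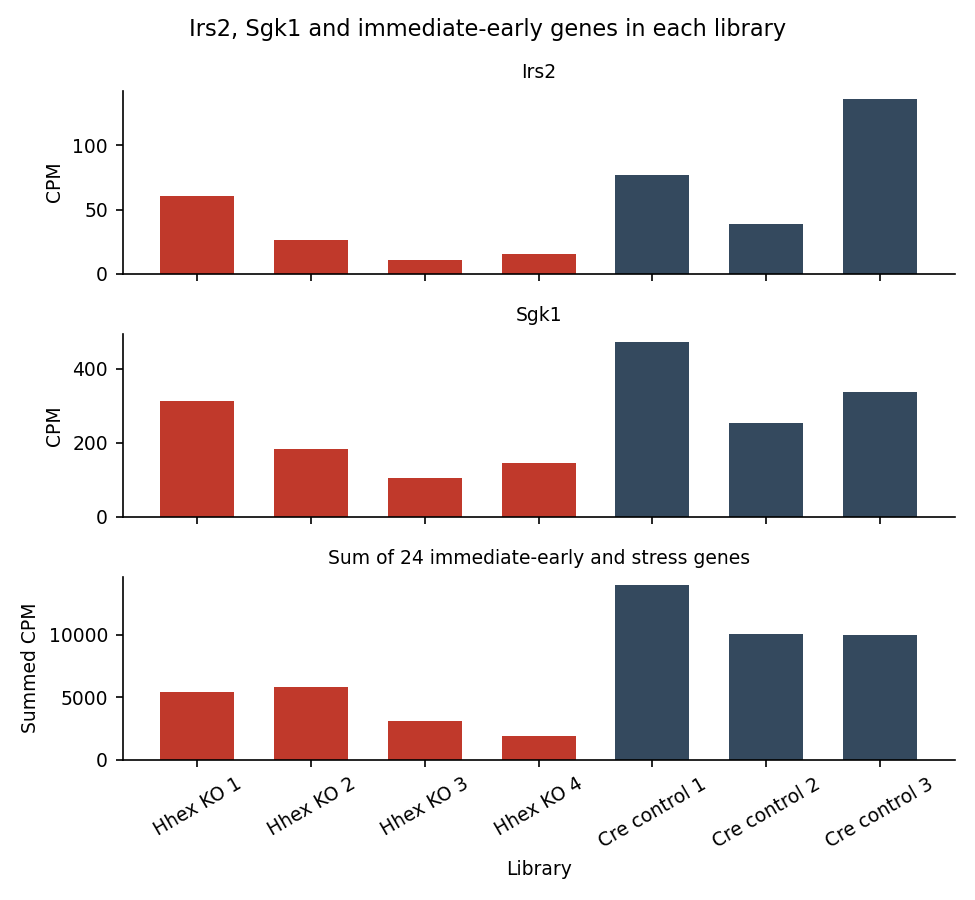
CPM of Irs2, CPM of Sgk1 and the summed CPM of 24 immediate-early and stress genes, 1 bar per library. The immediate-early sum is 1910 to 5857 CPM in Hhex KO and 9966 to 13951 CPM in Cre control, while Irs2 and Sgk1 overlap between the groups.

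Of 12 tested genes of the receptors and adaptors around IRS2, 0 rose and 1 fell (8.33%), beside 2.68% and 1.87% of all genes. The median log2 fold change of the 12 was -0.04. The 1 that fell, the gene of an IL-4 receptor chain that signals through IRS2, was Il4ra. It stood at 44.9, 49.7, 50.8 and 30.8 CPM in Hhex KO, against 113, 117 and 126 CPM in Cre control. The groups did not overlap (log2 fold change -1.43 ± 0.17, adjusted p = 0.00283), and the call held in all alternatives tried.

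Txnip (ENSMUSG00000038393.14, chromosome 3, 96557957 to 96561883, plus strand) encodes an arrestin-like protein that limits glucose uptake and binds thioredoxin. It stood at 666, 639, 718 and 862 CPM in Hhex KO and at 577, 688 and 817 CPM in Cre control. The ranges overlapped widely, with a log2 fold change of 0.05 ± 0.17 (95% interval -0.32 to 0.43, adjusted p = 0.918). Its sign turned under several alternatives, with 0.14 for Hhex KO replicates 1 and 4 kept and -0.046 for replicates 2 and 3 kept. Of 14 tested partners of TXNIP and genes of glucose uptake, 0 rose and 0 fell by edgeR, and 3 had an unadjusted p below 0.05. The 2 with the smallest p were Slc2a3, a glucose transporter gene, at -0.44 ± 0.13 (adjusted p = 0.0986), and Arrdc3, an arrestin-like relative of Txnip, at -0.81 ± 0.24 (adjusted p = 0.101). DESeq2, which called 9% of all genes, called both, at adjusted p-values of 0.0205 and 0.0235. Slc2a3 was also past the threshold with sample quality weights (0.0215) and with only Hhex KO replicates 2 and 3 kept (0.0287) or only replicates 1 and 4 kept (0.0414). Arrdc3 was also past it with sample quality weights (0.0121), with the replicate block (0.0160) and without Hhex KO replicate 4 (0.0453). For Slc2a3 every Hhex KO library, 102 to 139 CPM, was below every Cre control library, 158 to 174 CPM.

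The sestrins are stress proteins that restrain mTORC1 and are induced by FOXO and p53. Sesn1 (ENSMUSG00000038332.13, chromosome 10, 41809935 to 41908424, plus strand) stood at 116, 82.0, 115 and 140 CPM in Hhex KO, against 81.2, 82.2 and 91.2 CPM in Cre control. Hhex KO replicates 1, 3 and 4 were above all Cre control libraries and replicate 2 was among them. The means were 113 ± 23.7 CPM in Hhex KO (SD, n = 4) and 84.9 ± 5.48 CPM in Cre control (SD, n = 3). The log2 fold change of 0.41 ± 0.17 (95% interval 0.03 to 0.80) had an unadjusted p of 0.0394 and an adjusted p of 0.240. It was 0.60 (adjusted p = 0.0284, in a fit that called 7.21% of all genes) with only Hhex KO replicates 1 and 4 kept, the pair with more nuclear-retained RNA, and 0.20 (adjusted p = 0.316) with only replicates 2 and 3 kept. The part of the nuclear-retained RNA in this was not tested.

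Sesn3 (ENSMUSG00000032009.8, chromosome 9, 14275067 to 14333101, plus strand) stood at 267, 225, 291 and 212 CPM in Hhex KO and at 195, 213 and 242 CPM in Cre control. The groups overlapped, with a log2 fold change of 0.20 ± 0.15 (95% interval -0.14 to 0.53, adjusted p = 0.551). Sesn2, the sestrin gene outside the group and also chosen after its values were seen, averaged 22.5 ± 3.73 CPM in Hhex KO and 20.7 ± 3.05 CPM in Cre control, a log2 fold change of 0.12 ± 0.17 (edgeR adjusted p = 0.803). Of 32 tested genes of the sestrin and mTORC1 branch, 0 rose and 1 fell (3.12%), beside 2.68% and 1.87% of all genes. The median log2 fold change of the 32 was 0.01. The 1 that fell was Castor1, which encodes an arginine sensor that holds back mTORC1. It stood at 6.48, 6.99, 7.19 and 5.31 CPM in Hhex KO, against 22.1, 23.1 and 17.3 CPM in Cre control, a log2 fold change of -1.68 ± 0.17 (edgeR adjusted p = 0.00129). The groups did not overlap, and the call held in all alternatives tried.

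Ccng2 (ENSMUSG00000029385.14, chromosome 5, 93267257 to 93276231, plus strand) encodes cyclin G2, an unconventional cyclin that slows the cell cycle and is a classical FOXO target. It stood at 96.6, 85.1, 78.2 and 107 CPM in Hhex KO and at 107, 99.3 and 103 CPM in Cre control. The Cre control libraries were close together, and 3 of the 4 Hhex KO libraries lay below them. The log2 fold change was -0.17 ± 0.13 (95% interval -0.46 to 0.12, adjusted p = 0.548). With only Hhex KO replicates 2 and 3 kept, Ccng2 was past the threshold at -0.35 (adjusted p = 0.0221), in a fit that called 28.3% of all genes tested; with only replicates 1 and 4 kept it was at -0.018 (adjusted p = 0.939). None of the 10 genes of the cyclin G family and its relatives passed the threshold, and 0 of them had an unadjusted p below 0.05. Their 2 smallest p-values were those of Ppp2r5b (log2 fold change -0.27, adjusted p = 0.347) and Ppp2r5e (-0.15, adjusted p = 0.618), which encode regulatory subunits of the phosphatase PP2A. Ppp2r5b was past the threshold with sample quality weights (0.0291) and with only Hhex KO replicates 2 and 3 kept (0.0242).

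Bcl6 (ENSMUSG00000022508.5, chromosome 16, 23965052 to 23988852, minus strand) encodes a zinc finger repressor known from germinal centre B cells and follicular helper T cells, and is induced by FOXO factors when AKT activity is low. It stood at 22.6, 19.8, 20.9 and 22.8 CPM in Hhex KO replicates 1 to 4, against 30.6, 30.3 and 33.8 CPM in Cre control replicates 1 to 3. Every Hhex KO library was below every Cre control library. The means were 21.5 ± 1.41 CPM in Hhex KO (SD, n = 4) and 31.5 ± 1.94 CPM in Cre control (SD, n = 3), and the log2 fold change was -0.55 ± 0.11 (95% interval -0.81 to -0.30, adjusted p = 0.0299).

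The Bcl6 call lay close to the threshold. It was lost in 6 of 7 fits that each left out 1 library, with adjusted p-values of 0.0502, 0.0769 and 0.0846 without Hhex KO replicates 1, 2 and 3, and of 0.115, 0.0965 and 0.161 without Cre control replicates 1, 2 and 3; it remained without Hhex KO replicate 4, at 0.0286. The log2 fold change was -0.65 with only Hhex KO replicates 2 and 3 kept (adjusted p = 0.00412) and -0.47 with only replicates 1 and 4 kept (adjusted p = 0.0595). Bcl6 is also read in B cells. The summed level of 10 B cell marker genes, most of it Ighm, was 306 to 478 CPM in Hhex KO and 228 to 280 CPM in Cre control, higher in every Hhex KO library, while Bcl6 was lower there. The part of B cell RNA in the Bcl6 values was not tested.

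**Figure D4:**
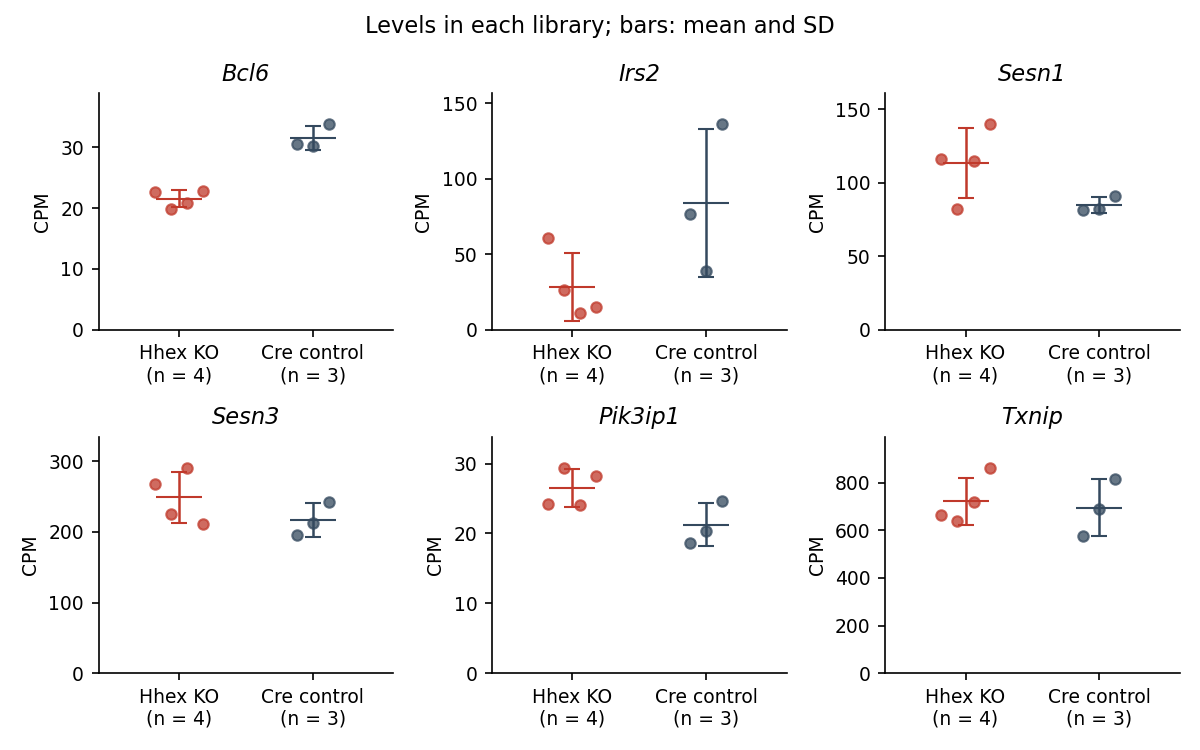
CPM in each library for Bcl6, Irs2, Sesn1, Sesn3, Pik3ip1 and Txnip, Hhex KO (n = 4) left of Cre control (n = 3), with mean and SD as bars. The groups are apart for Bcl6, at 19.8 to 22.8 CPM in Hhex KO and 30.3 to 33.8 CPM in Cre control, and overlap in the other panels.

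Of 37 tested FOXO targets outside the group, 4 rose (10.8%) and 5 fell (13.5%), beside 2.68% and 1.87% of all genes. This list, like the others, was chosen with earlier results of these data known. The median log2 fold change of the 37 was -0.13, beside 0.02 for all genes. The groups did not overlap for 5 that were higher (13.5%) and 11 that were lower (29.7%). Of all genes, 9.37% were higher and 9.98% lower without overlap. The 4 that rose were Il7r, Tnfsf10, S1pr1 and Bcl2l11. Il7r, which encodes the IL-7 receptor chain and is the best known FOXO1 target of lymphocytes, stood at 148, 146, 166 and 130 CPM in Hhex KO, against 47.4, 50.1 and 37.2 CPM in Cre control. Its log2 fold change was 1.72 ± 0.15 (adjusted p = 0.000513), and the call held in all alternatives tried. Tnfsf10, the gene of the death ligand TRAIL, stood at 72.5, 73.6, 97.8 and 57.3 CPM in Hhex KO and 35.1, 33.1 and 26.8 CPM in Cre control. It rose by 1.25 ± 0.19 on the log2 scale (adjusted p = 0.00954, and 0.0585 without Cre control replicate 3).

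Bcl2l11, the gene of the pro-apoptotic protein BIM and a FOXO3 target, stood at 303, 312, 327 and 230 CPM in Hhex KO and 144, 154 and 168 CPM in Cre control. It rose by 0.92 ± 0.15 on the log2 scale (adjusted p = 0.0123). The call was lost without any one Cre control library, at 0.0793, 0.0635 and 0.0532 without replicates 1, 2 and 3. S1pr1, the gene of a receptor for egress from tissue, stood at 182, 293, 289 and 203 CPM in Hhex KO and 117, 117 and 123 CPM in Cre control, a log2 fold change of 1.02 ± 0.19 (edgeR adjusted p = 0.0198; 0.0993, 0.0869 and 0.0887 without Cre control replicates 1, 2 and 3). With only Hhex KO replicates 1 and 4 kept it was 0.70 (adjusted p = 0.0104), and with only replicates 2 and 3 kept 1.28.

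The 5 that fell were Klf6, Fasl, Btg1, Klf2 and Pink1, the last 4 of them named after their values were seen. Klf6, a zinc finger gene induced by stimulation, stood at 337, 336, 251 and 190 CPM in Hhex KO, against 876, 651 and 785 CPM in Cre control. Its log2 fold change was -1.47 ± 0.21 (adjusted p = 0.00796, and 0.0506 without Cre control replicate 1). Fasl, the gene of Fas ligand, averaged 144 ± 28.7 CPM in Hhex KO and 299 ± 78.2 CPM in Cre control (log2 fold change -1.05, adjusted p = 0.0277). With only Hhex KO replicates 1 and 4 kept Fasl was at -0.83, and with only replicates 2 and 3 kept at -1.33.

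Btg1, an antiproliferative gene, averaged 728 ± 170 CPM in Hhex KO and 1439 ± 189 CPM in Cre control (log2 fold change -0.98, adjusted p = 0.0334). Klf2, a quiescence and trafficking factor that FOXO1 induces and that itself induces S1pr1, averaged 706 ± 71.8 CPM in Hhex KO and 1207 ± 226 CPM in Cre control (log2 fold change -0.77, adjusted p = 0.0312). Pink1, a mitophagy kinase gene, averaged 107 ± 6.74 CPM in Hhex KO and 160 ± 19.2 CPM in Cre control (log2 fold change -0.58, adjusted p = 0.0292). Klf2 and S1pr1, both textbook FOXO1 targets, thus changed in opposite directions. For each of Fasl, Btg1, Klf2 and Pink1 at least 4 of the 7 fits that left out 1 library lost the call, with adjusted p-values of 0.0532 to 0.150.

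**Figure D5:**
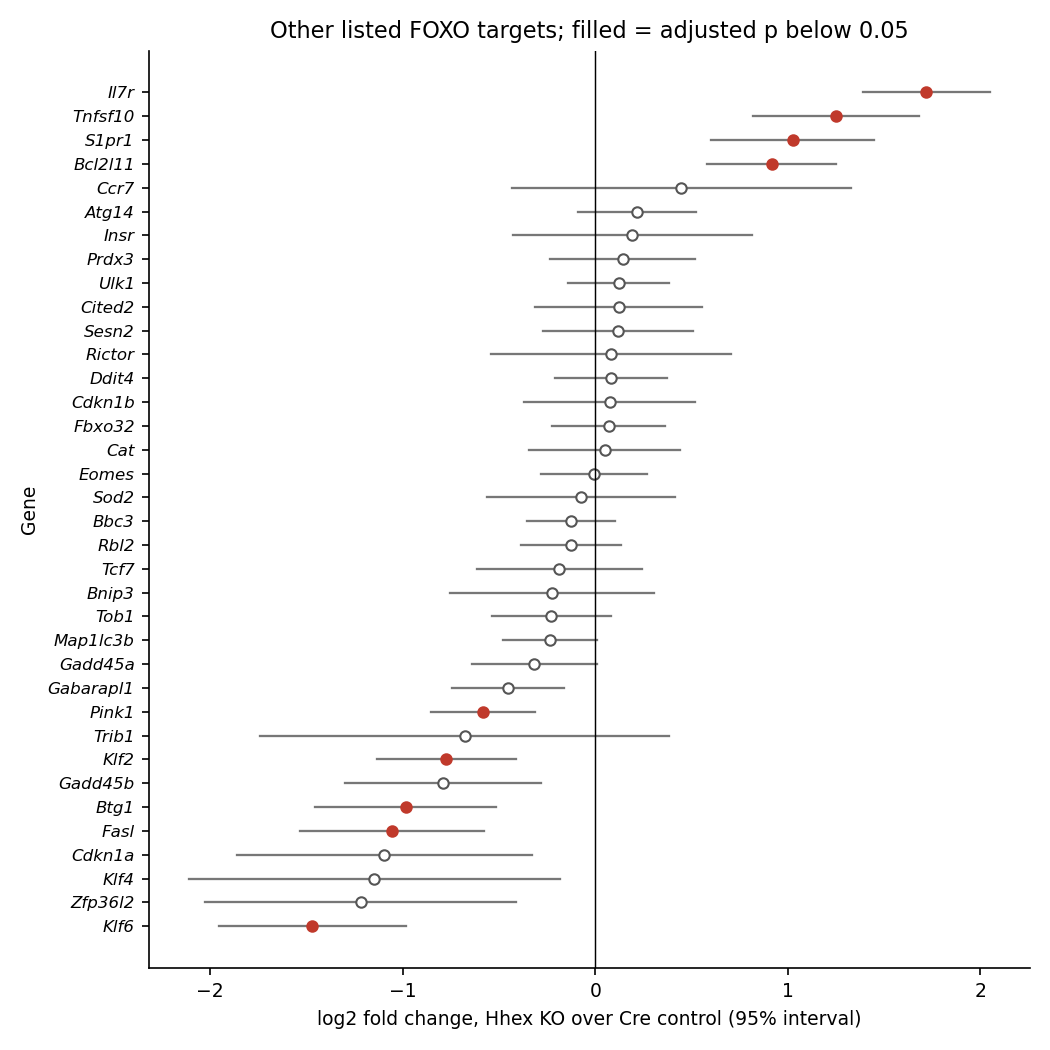
Log2 fold change of 36 of the 37 tested FOXO targets outside the group, Hhex KO over Cre control, with 95% intervals; filled points are past the threshold. Il7r at 1.72 is at the top and Klf6 at -1.47 at the bottom, with 4 filled points above 0 and 5 below 0.

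Over all genes, 2.68% rose and 1.87% fell. Of 34 other genes whose products modify FOXO proteins or are tied to their activity, 2 rose (5.88%) and 0 fell. They were Foxm1, the gene of a mitotic forkhead factor that FOXO factors oppose and that is not known to modify them, at 27.6, 20.5, 21.6 and 13.6 CPM in Hhex KO and 5.92, 8.45 and 7.73 CPM in Cre control, and Cdk2, the gene of an S phase kinase that phosphorylates FOXO1. Their log2 fold changes were 1.5 ± 0.25 (adjusted p = 0.0128) and 0.76 ± 0.13 (adjusted p = 0.0145). Foxm1 lost its call without Cre control replicate 1 or 3 (0.0813 and 0.0766), and Cdk2 without replicate 1 or 2 (0.0925 and 0.0777). Of 24 proliferation genes, 8 rose (33.3%), 0 fell and 24 had a log2 fold change above 0. Their summed level was 970 to 2119 CPM in Hhex KO and 651 to 1038 CPM in Cre control, and its part in these values was not tested.

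Among 27 genes that act with BCL6 or are known to be repressed by it, 4 rose (14.8%) and 1 fell (3.7%). Over all genes, 2.68% rose and 1.87% fell. The median log2 fold change of the 27 was 0.03. The 4 that rose were Il7r, Rora, Irf4 and S1pr1, and the 1 that fell was Klf2, so that 3 of the 5 were also among the FOXO targets above. Rora, the gene of a nuclear receptor of innate lymphoid cells, stood at 67.9, 45.3, 57.7 and 56.0 CPM in Hhex KO, against 16.9, 19.4 and 18.6 CPM in Cre control (log2 fold change 1.63 ± 0.15, adjusted p = 0.000954). Irf4, a factor of activated lymphocytes, stood at 17.2, 16.3, 24.3 and 11.5 CPM in Hhex KO and 3.67, 6.34 and 5.24 CPM in Cre control (1.77 ± 0.29, adjusted p = 0.0123; 0.0707 and 0.0737 without Cre control replicates 1 and 3). Prdm1, the most studied target of BCL6 repression and chosen for that reason after its values were seen, averaged 127 ± 13.1 CPM in Hhex KO and 144 ± 13.2 CPM in Cre control, a log2 fold change of -0.18 ± 0.12 (edgeR adjusted p = 0.504).

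Some of the genes named above, Il7r, Tnfsf10, Inpp4b and Rora, are also markers of type 1 innate lymphoid cells (ILC1), relatives of NK cells that share NK1.1 and NKp46 with them but mostly lack CD49b, which the sort required. Of 11 ILC1 markers, 10 rose and 1 fell, beside 2.68% and 1.87% of all genes. Kit, named after its values were seen, was the 1 that fell (log2 fold change -1.42). The lists were chosen with earlier results of these data known. The summed level of the 11 was 593 to 811 CPM in Hhex KO and 229 to 304 CPM in Cre control. The summed level of 12 NK cell markers was 17103 to 21109 CPM in Hhex KO and 21172 to 26170 CPM in Cre control, with 0 of the 12 past the threshold. Among them Itga2, the gene of CD49b, stood at 423 to 512 CPM in Hhex KO and 380 to 543 CPM in Cre control. T cells also read Il7r and S1pr1, and the sort took cells without CD3. The summed level of 13 T cell markers was 621 to 679 CPM in Hhex KO and 526 to 588 CPM in Cre control, higher in every Hhex KO library, and of the 10 that were tested 1 rose (Trbc2, adjusted p = 0.0412) and 0 fell. Cd3e stood at 10.6 to 25.7 CPM in Hhex KO and 8.75 to 13.6 CPM in Cre control (log2 fold change 0.87). The T cell markers that follow were named after their values were seen. Cd3d stood at 30.6 to 57.2 CPM in Hhex KO and 16.5 to 30.3 CPM in Cre control (0.97, edgeR adjusted p = 0.089). Trac (0.49) was also higher without overlap, and Cd3g (0.72) overlapped. The tested markers below 0 were Bcl11b (-0.35) and Cd247 (-0.075). Cd247 gave 215 to 262 CPM of the sum in Hhex KO and 237 to 257 CPM in Cre control. The part of these cell type markers in the FOXO target values was not tested.

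Over the 8 pathway lists together, 185 of 197 genes were tested, 9 rose (4.86%) and 7 fell (3.78%), beside 2.68% and 1.87% of all genes, and the median log2 fold change was -0.02. The groups did not overlap for 15 higher genes (8.11%) and 27 lower genes (14.6%), beside 9.37% and 9.98% of all genes. The listed FOXO targets of liver and muscle, Pck1, G6pc, Pdk4 and Trim63, and the T cell target Ctla4 did not pass the filter on low counts, nor did Irs1. Genes annotated on the opposite strand overlap exons of Foxo1 (Gm20402, 674 bases), Txnip (Gm15441, 606 bases), Irs2 (9530052E02Rik, 162 bases), Pik3ip1 (Gm12592, 91 bases) and Bcl6 (Gm37419, 21 bases). Per library, Gm20402 had 1 to 5 raw counts, Gm15441 8 to 32, Gm12592 3 to 6 and Gm37419 1 to 9. The gene 9530052E02Rik had 0 in all libraries. Whether counting used strand was not given in the sources used here. Reads in these overlaps may therefore have been shared or left out.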

How the data were processed

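RNA of sorted splenic NK cells from 4 Hhex KO and 3 Cre control samples was sequenced as single-end reads from directional libraries. The authors deposited raw, unnormalised read counts for 53379 genes. STAR, featureCounts and the build mm10 are named, with no version, in the submitters' processing notes. Neither the annotation release nor whether counting used strand was stated there. Columns were matched to samples by title, 0 columns were left unused, and 99.8% of identifiers had an entry in the gene name table when the version was ignored (94.8% when it was kept). Gene coordinates are 1-based, from GENCODE M21 on GRCm38, and promoter sequences are from RefSeq on GRCm38.p6.

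The members and the gene lists were chosen with earlier results of these data known. Counts were tested with edgeR 4.0.16 in R 4.3.3. The filter on low counts used a minimum count of 10 and a minimum total of 15. A gene passed with as many libraries above the cutoff as the smaller group holds, from either genotype. TMM factors scaled the libraries, and the groups were compared by the robust quasi-likelihood F test without covariates. P-values were adjusted by Benjamini-Hochberg over 12161 tested genes, with calls made below 0.05. Standard errors are the log2 fold change divided by the square root of F. Lists are described by counts and medians, with no test of a list. The genes named by rule were the 10 members, Hhex and Bcl2l11, and from each list the called genes up to 4 by smallest p or, with none called, the 2 with the smallest p. Other genes are marked as chosen after their values were seen, and the alternatives were run for all of them except Sgk1, Sesn2, Prdm1 and Myc. They were not run for the cell type markers.

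Totals were 10589915 to 18456404 counts per library. Replicates differed far beyond sampling noise (chi-square per degree of freedom 10.4 to 71.5 within groups), so each library counted as 1 replicate. Hhex KO replicate 4 is numbered 95 in the table and the other samples 20 to 28; no batch was stated. The submitters call the replicates biological, but the labels do not tie each sample to an animal, so p-values reflect the spread among these libraries, part of which may be technical.

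The alternatives were scaling by RLE or upper quartiles, no filter, a filter of 10 CPM or more in 3 or more libraries, limma-voom (limma 3.58.1) both plain and with sample quality weights, DESeq2 1.42.0, the replicate number as a block in the 6 libraries numbered 1 to 3, and fits without each library in turn. Leaving out Hhex KO replicates 1 and 4, or 2 and 3, was added after seeing the data. The values of some listed genes are not reported here. The procedure was tested on simulated counts.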

Additional observations from a re-analysis of the deposited data

How the results depend on the processing

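Of 170 member fold changes under the alternatives, 142 kept their direction and side of the threshold, 9 lost the call (all Bcl6), 3 gained one and 16 turned sign. Bcl6 stayed negative throughout, at -0.47 to -0.65, with adjusted p-values of 0.00171 with DESeq2 and 0.0521 without a filter. The sign turned for Foxo1 without Hhex KO replicates 2 and 3 (-0.15); for Foxo3 with quality weights (0.025), the replicate block (0.097), without Hhex KO replicate 4 (0.081), Cre control replicate 3 (0.14; -0.12 without Cre control replicate 1) or Hhex KO replicates 1 and 4 (0.047); for Foxo4 with upper-quartile scaling (0.0067), without Hhex KO replicate 2 (0.033), Hhex KO replicate 3 (0.032), Cre control replicate 3 (0.060; -0.092 without Hhex KO replicate 1) or Hhex KO replicates 2 and 3 (0.12); and for Txnip with quality weights (-0.035), the replicate block (-0.033), without Hhex KO replicate 4 (-0.047), Cre control replicate 1 (-0.067; 0.19 without Cre control replicate 3) or Hhex KO replicates 1 and 4 (-0.046). The cause was not tested.

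Among the members, the lower calls numbered 0 with no filter, 0 with the replicate block, 2 with quality weights, 2 without Hhex KO replicates 1 and 4, and 0 without Hhex KO replicates 2 and 3, where 1 was called higher; leaving out 1 library gave 0 higher and 0 to 1 lower. Over the pathway lists, DESeq2 called 16 lower; quality weights 16 higher and 29 lower; the fit without Hhex KO replicates 1 and 4, 22 higher and 32 lower; and that without Hhex KO replicates 2 and 3, 12 lower. Leaving out 1 library gave 3 to 9 higher and 2 to 10 lower. For the other FOXO targets, DESeq2 called 9 lower, quality weights 11 and the fit without Hhex KO replicates 1 and 4 also 11; leaving out 1 library gave 1 to 4 higher and 0 to 6 lower. Over all genes, 554 were called by edgeR, 1094 by DESeq2, 2859 with quality weights, 369 with the stricter filter, 3544 without Hhex KO replicates 1 and 4, 879 without Hhex KO replicates 2 and 3, and 141 to 818 without 1 library.

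Deviations of same-numbered libraries from their group means correlated at 0.331, 0.527 and -0.149, and those of the other pairs at -0.578 to 0.347. Hhex KO replicates 1 and 3 each correlated better with a Cre control library of another number. These values do not settle whether libraries were paired. The labels state no pairing, and the main fit used none. The replicate block gave 774 calls, against 818 in the same 6 libraries without it, and Bcl6 at -0.58 (adjusted p = 0.0504). With 4 and 3 libraries, the interval of Foxo1 spans 0.797-fold to 1.52-fold, so a change of that size could be missed.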
